A study of Homo sapiens with 12 samples.

Results

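The comparison was between the human melanoma line A375 and its drug-resistant derivative A375-BIR, both under the BRAF inhibitor dabrafenib. It took 6 of the 12 samples of the study, chosen by the line and treatment in their labels: 3 samples of A375 and 3 of A375-BIR, all after 48 h in 200 nM dabrafenib. The other 6 samples were 3 of each line after 48 h in 0.1% DMSO, the vehicle. They were used to ask whether a difference between the lines was also present without the drug. They also entered the abundance filter, the scaling and the estimate of spread behind the tests under dabrafenib. Small RNA was sequenced from every sample, and the question was which miRNAs separate the resistant from the sensitive cells while both are exposed to the inhibitor. A375-BIR was obtained from A375 by prolonged growth in the inhibitor and stands for 1 resistant line, so drug resistance and the lines' separate culture histories cannot be told apart. The labels call the replicates biological and do not say whether they were separate cultures, so each p-value measures the spread between these samples.

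MicroRNAs are short RNAs that guide the silencing complex to messenger RNAs, mainly through the seed, a stretch near the 5′ end that pairs with the target. Each is cut from a hairpin precursor, and precursors that share a seed form a family with overlapping targets, whether they lie side by side in 1 transcript or on different chromosomes. In melanoma, some miRNAs mark the pigment cell lineage, such as miR-204, miR-211 and the miR-506 to miR-514 cluster of the X chromosome, while others act on growth pathways, such as let-7 on RAS genes and miR-221 and miR-222 on the cell cycle inhibitor CDKN1B and the receptor KIT.

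The mature sequences of the families that the results turn on are given 5′ to 3′, with the seed (bases 2 to 8) in capitals. They come from the RefSeq miRNA table of GRCh38.p14, which matched 1715 of the deposited precursors. The let-7 family comes first, because its members share a seed and yet moved in opposite directions between the lines.
let-7a-5p: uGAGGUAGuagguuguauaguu
let-7b-5p: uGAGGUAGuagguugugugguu
let-7c-5p: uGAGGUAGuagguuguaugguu
let-7d-5p: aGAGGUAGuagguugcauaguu
let-7f-5p: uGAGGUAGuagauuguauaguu
let-7i-5p: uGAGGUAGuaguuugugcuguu
miR-98-5p: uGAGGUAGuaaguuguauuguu
Counted from the 5′ end, let-7a and let-7b differ by A17G and A19G, let-7a and let-7c by A19G alone, and let-7b and let-7c by G17A alone. None of these positions is in the seed.

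The next sequences are of families with members that differed in size or direction of change. The exception is miR-204 with miR-211, of which only miR-204 was abundant enough for the test. The miR-146 members differ by G18A and U21C and by 1 base in length, and they moved in opposite directions. The miR-196 members differ by A12C, and miR-30a and miR-30e by C13U.
miR-146a-5p: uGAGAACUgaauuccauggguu
miR-146b-5p: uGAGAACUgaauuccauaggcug
miR-221-3p: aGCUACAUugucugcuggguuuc
miR-222-3p: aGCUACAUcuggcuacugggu
miR-196a-5p: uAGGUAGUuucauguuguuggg
miR-196b-5p: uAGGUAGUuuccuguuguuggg
miR-30a-5p: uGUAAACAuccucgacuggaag
miR-30c-5p: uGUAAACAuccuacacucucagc
miR-30e-5p: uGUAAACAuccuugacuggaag
miR-125a-5p: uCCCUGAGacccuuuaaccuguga
miR-125b-5p: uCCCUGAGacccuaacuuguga
miR-99b-5p: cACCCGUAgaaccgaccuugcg
miR-100-5p: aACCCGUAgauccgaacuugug
miR-204-5p: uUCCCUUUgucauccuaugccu
miR-211-5p: uUCCCUUUgucauccuucgccu
The remaining sequences, no 2 of which share a seed, are of further miRNAs with large differences.
miR-31-5p: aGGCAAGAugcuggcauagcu
miR-182-5p: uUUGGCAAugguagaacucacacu
miR-509-3p: uGAUUGGUacgucuguggguag
miR-155-5p: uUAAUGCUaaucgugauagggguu
miR-148a-3p: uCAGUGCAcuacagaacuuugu
The deposited values do not resolve the 5p and 3p arms, so the arm printed is the one by which the miRNA is usually known.

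Each value is an expected count, the number of reads that the program RSEM assigned to a precursor, which need not be whole because a read that could come from several precursors is divided among them. The expected counts summed to 47507, 51532 and 36955 in A375 replicates 1 to 3 and to 35070, 59899 and 47607 in A375-BIR replicates 1 to 3. At least 1 of these 6 samples had a count for 769 of the deposited precursors. The 175 precursors abundant enough for testing held at least 98.7% of the counts of each sample. Where a precursor had no count, its level could reach 85.5 CPM (counts scaled to the same total in every sample) in the shallowest sample and 50.1 CPM in the deepest, a limit of 3 counts that covers counting error only. Log2 levels correlated between 0.92 and 0.97 (Pearson) among replicates of a line and between 0.81 and 0.87 across lines, as a description over precursors, which are not independent replicates.

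A few miRNAs filled most of each sample. The 10 most abundant precursors took 74.0%, 76.7% and 74.8% of the counts in the A375 samples and 65.1%, 65.8% and 70.0% in the A375-BIR samples. The 12 let-7 and miR-98 precursors together took 54.1%, 52.8% and 55.5% in A375 and 47.7%, 50.2% and 52.3% in A375-BIR, so the A375 samples all lay above the A375-BIR samples, by a small margin. Inside the family the makeup was exchanged: let-7b took 26.4% ± 1.64 of the counts in A375 and 12.7% ± 1.06 in A375-BIR (SD, n = 3 each), while the 3 let-7a precursors took 14.1% ± 0.616 and 24.6% ± 1.64. Neither set of values overlapped between the lines, though an exact test of 3 samples against 3 cannot give a p below 0.1.

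**Figure D1:**
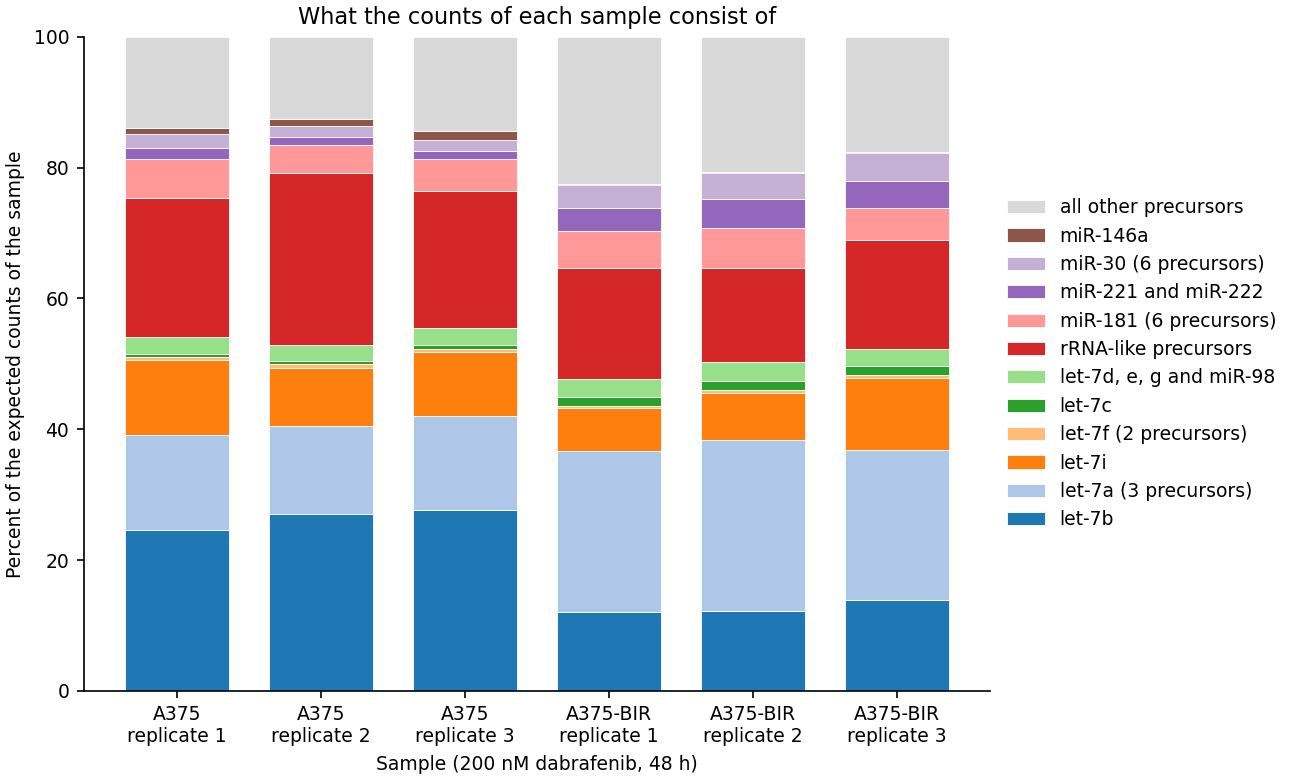
Stacked bars give the percent of the expected counts of each of the 6 samples that fell on named groups of precursors. Let-7b was the largest single group in the 3 A375 samples (24.5% to 27.6%) and let-7a in the 3 A375-BIR samples (22.9% to 26.2%), and the rRNA-like precursors took 20.9% to 26.3% and 14.4% to 16.9%.

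Precursors with a stretch of at least 18 bases found in the 45S ribosomal precursor RNA, called rRNA-like here, took 21.2%, 26.3% and 20.9% of the counts in A375 and 16.9%, 14.4% and 16.7% in A375-BIR under dabrafenib, against 2.65% to 5.59% in the DMSO samples. Under dabrafenib these shares were apart between the lines. In DMSO they overlapped, at 3.49%, 3.22% and 5.59% in A375 and 2.65%, 2.67% and 4.57% in A375-BIR. The part of these precursors in the other results was not tested beyond leaving them out. Because a few precursors were so abundant, results were read under 2 scalings. TMM scaling sets the samples so that most precursors show no net shift, and its factors were 0.814, 0.693 and 0.822 in A375 and 1.06, 1.12 and 1.05 in A375-BIR. Total-count scaling uses the sum of all counts. Relative to TMM, it raised the median log2 fold change of A375-BIR over A375 by 0.47, from 0.03 to 0.50. Under dabrafenib every tested precursor but MIR3929 and MIR622, which had no counts in A375, moved by about this amount. Log2 fold changes are A375-BIR over A375 with TMM unless total counts are named.

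The labelled cell type was checked against lists of marker miRNAs. Of the 10 pigment lineage precursors, 7 had a count in these samples, and the 3 precursors MIR514A1, MIR514A2 and MIR514A3 had none. Their summed counts were 755, 947 and 705 in A375 and 76, 114 and 134 in A375-BIR, with MIR146A, which is not confined to pigment cells, supplying most of them (453, 565 and 504 counts in A375 and 57, 93 and 99 in A375-BIR). MIR211, the pigment cell miRNA within TRPM1, stood at 5, 4 and 9 counts in A375 and 3, 4 and 4 in A375-BIR, too few for the test, so a defining marker of pigment cells was nearly absent from both lines.

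Markers of other cell types were at low counts. The 7 epithelial precursors summed to 7, 8 and 5 counts in A375 and 3, 1 and 13 in A375-BIR, mostly MIR205, and MIR429 and MIR203A were at 0. The 7 blood cell precursors summed to 1, 10 and 7 and to 7, 17.5 and 10 counts, with MIR150 the most abundant and MIR451A, MIR486-1 and MIR486-2 at 0. The 6 muscle precursors summed to at most 2.2 counts in any sample, with MIR1-2 the most abundant and MIR133B at 0. Liver and neuron markers summed to 9, 10 and 2 counts in A375 and 10, 15 and 17 in A375-BIR, with MIR9-1 and its copies holding them and MIR122 and the 3 MIR124 precursors at 0. The 3 endothelial and stromal markers summed to 26, 29 and 13 counts in A375 and 24, 47 and 53 in A375-BIR, nearly all from MIR143. The part of these small counts in the results was not tested. A lower level in such bulk samples may come from fewer cells of a kind or from less RNA per cell, which cannot be told apart.

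Under dabrafenib, 81 of 175 tested precursors (46.3%) differed between the lines with TMM at a false discovery rate (FDR) under 0.05, by the quasi-likelihood F test of edgeR, adjusted after Benjamini-Hochberg over the tested precursors. Of these, 39 (22.3%) were higher and 42 (24%) lower in A375-BIR. With total counts, 59 were higher and 24 lower. Both scalings called 63 precursors in the same direction (36.0%), 39 of them higher (22.3%) and 24 lower (13.7%), and no precursor was called in opposite directions. The 24 lower calls are thus those that did not need the choice of TMM: the other 18 of the 42 kept their sign with total counts and missed the threshold. For 31 precursors, none of them called with both, the sign itself differed between scalings. The 3 values of A375 and the 3 of A375-BIR did not overlap for 88 precursors (50.3%), and for 62 of the 63 called with both scalings, MIR93 being the exception. The 63 precursors make 53 units once those with an identical mature sequence are counted once. Precursors without a mature sequence in the RefSeq table, such as ENSG00000277437 and ENSG00000264063, each stayed a unit of their own. After the counts of precursors with an identical mature sequence were added up, 64 of 156 (41.0%) differed with TMM, 34 higher and 30 lower, and 34 and 20 with both scalings. Among the 63, 10 higher and 13 lower calls exceeded 4-fold with TMM, against 17 and 7 with total counts.

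**Figure D2:**
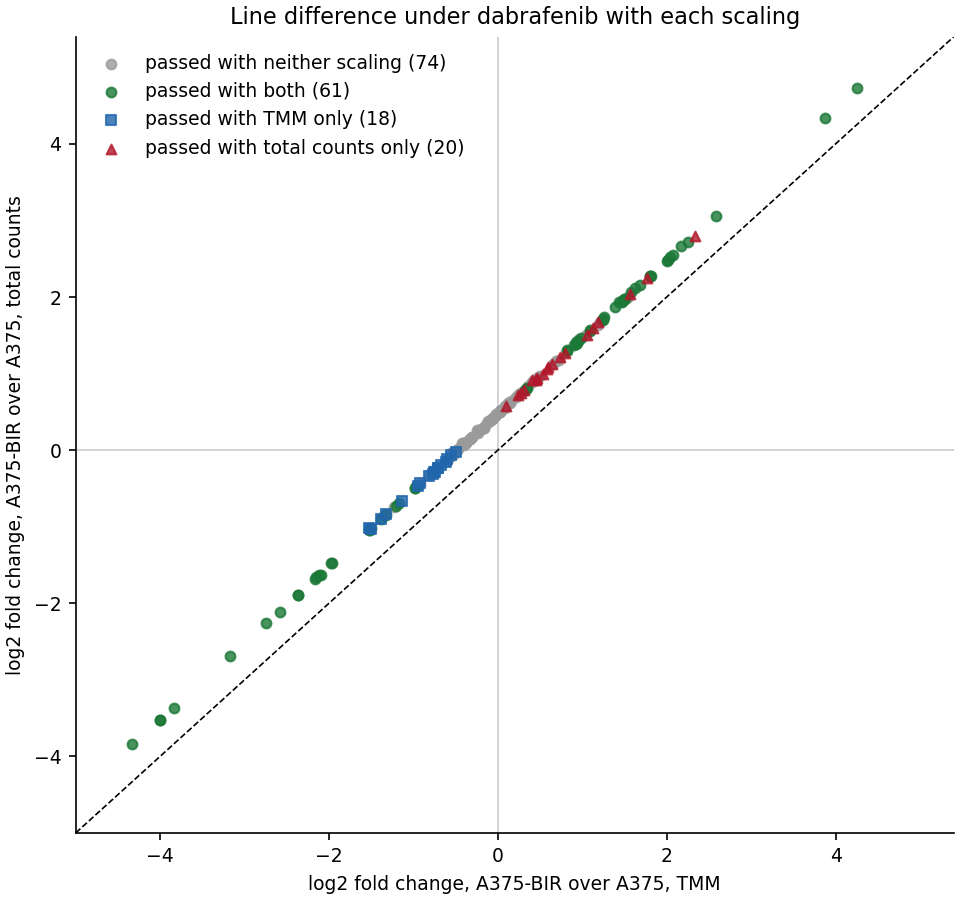
Each point is a tested precursor, with its log2 fold change of A375-BIR over A375 under dabrafenib with TMM on the horizontal axis and with total counts on the vertical axis; the dashed line marks equal values. All points lie above the line by about the median shift of 0.47, so that 18 lower calls pass with TMM only and 20 higher calls with total counts only; MIR3929 and MIR622, which had no counts in A375, are not drawn.

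The largest reductions in the resistant line were of MIR204 and the MIR509 copies, which are linked to the pigment lineage. MIR204, which lies within an intron of TRPM3 on chromosome 9 (hg38, 70809975 to 70810084) and helps to shape pigment epithelium, stood at 5893, 8521 and 3888 CPM (TMM-scaled) in A375 and at 246, 180 and 485 CPM in A375-BIR. The lowest A375 sample was thus far above the highest A375-BIR sample. Its log2 fold change was -4.34 with TMM (SE, the standard error, 0.36, FDR = 3.39e-07 in edgeR's test) and -3.84 with total counts. MIR204 was counted in all 3 A375-BIR samples (9, 12 and 24 counts), so it was reduced and not lost.

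The miR-506 to miR-514 cluster, a group of X-linked miRNAs found in testis and in melanocytic cells, was also lower as far as it could be tested. MIR509-1 stood at 574, 649 and 764 CPM in A375 and at 54.6, 30.1 and 40.5 CPM in A375-BIR, without overlap. Its log2 fold change was -4.00 with TMM and -3.53 with total counts (FDR = 4.99e-07 and 3.28e-06 in edgeR's test). Of the 15 cluster members, 7 had a count and 3 were tested, the copies MIR509-1, MIR509-2 and MIR509-3, which give the same mature miRNA, divide its reads among themselves and so are 1 measurement. Added up, they gave a log2 fold change of -3.97 with TMM and -3.58 with total counts. MIR508, below the filter, had 5, 5 and 4 counts in A375 and 0, 0 and 1 in A375-BIR.

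The miR-146 family split between its members. MIR146A, a brake on Toll-like receptor signalling that is switched on by NF-kB, lies on chromosome 5 (160485352 to 160485450) in MIR3142HG and stood at 11812, 15941 and 16748 CPM in A375 and at 1557, 1399 and 2002 CPM in A375-BIR. MIR146B, on chromosome 10 (102436512 to 102436584), has the same seed and stood at 730, 1016 and 532 CPM in A375 and at 4315, 3204 and 2872 CPM in A375-BIR. So the line that was high for 1 member was low for the other, and neither member overlapped between the lines. The log2 fold change was -3.17 for MIR146A (SE 0.22, FDR = 6.52e-08 in edgeR's test) and -2.69 with total counts. For MIR146B it was 2.17 (SE 0.30, FDR = 4.76e-05) and 2.66 with total counts. In A375-BIR the higher MIR146B did not make up for the lower MIR146A: the family's sum fell from 15583 ± 2639 to 5117 ± 669 CPM (SD, n = 3 each), a log2 ratio of -1.61 with TMM and -1.14 with total counts. In A375 nearly all reads with this seed were assigned to MIR146A, while in A375-BIR MIR146B was the more abundant in all 3 samples.

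**Figure D3:**
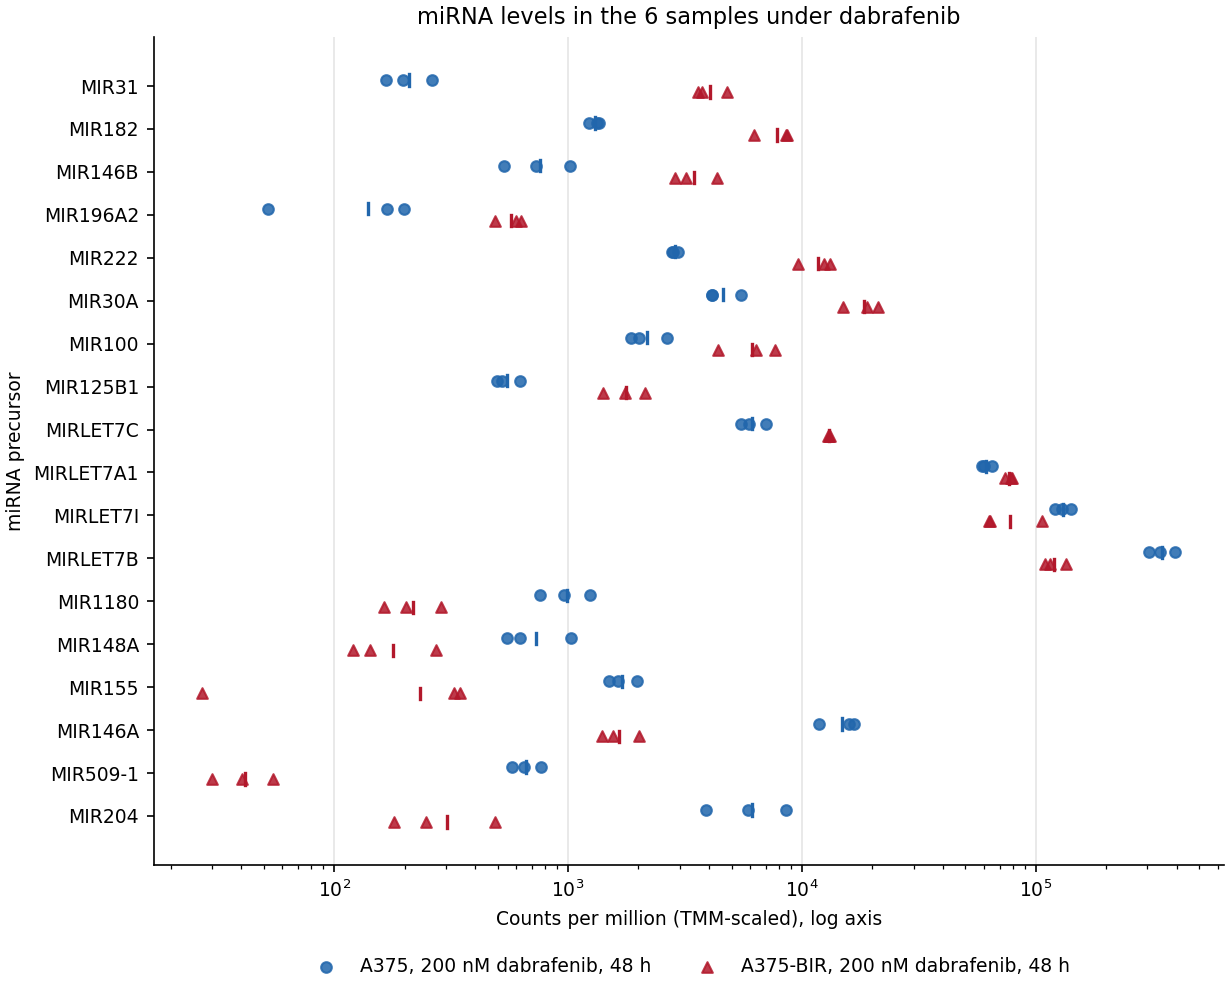
Points give the TMM-scaled CPM (log axis) of 18 precursors in each of the 3 A375 samples (circles) and 3 A375-BIR samples (triangles) under dabrafenib, and short bars the group means. The lines do not overlap for any of the 18, with MIR31 and MIR204 farthest apart; with total counts MIRLET7I is lower in A375-BIR without passing the test, and the others keep their direction and call.

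The let-7 family, known for restraining RAS and HMGA2, also split, and it did so at far higher levels. MIRLET7B stood at 303981, 393948 and 338816 CPM in A375 and at 115364, 109952 and 134324 CPM in A375-BIR, and was the most abundant precursor of the comparison. With TMM, though not with total counts, all A375 samples were more than 2-fold above all A375-BIR samples. Its log2 fold change was -1.53 with TMM (SE 0.16, FDR = 1.90e-06 in edgeR's test) and -1.05 with total counts. MIRLET7C went the other way, from 5476, 6997 and 5915 CPM in A375 to 13028, 13161 and 12985 CPM in A375-BIR, with its log2 fold change being 1.09 (SE 0.16, FDR = 7.29e-05) and 1.57 with total counts. The 3 A375-BIR values of MIRLET7C were close together and all above the A375 values.

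Let-7a was moderately higher in the resistant line. MIRLET7A1 stood at 60233, 65146 and 59017 CPM in A375 and at 78330, 78831 and 73847 CPM in A375-BIR, without overlap, and its log2 fold change was 0.33 with TMM (SE 0.11, FDR = 0.0235 in edgeR's test) and 0.80 with total counts. The call is small enough to depend on the scaling: with DESeq2's size factors it was 0.27 (FDR = 0.112). It also missed the threshold, at a similar log2 fold change, without A375-BIR replicate 1 (0.31, FDR = 0.0676) or 2 (0.31, FDR = 0.0765). The same held without A375 replicate 3 (0.30, FDR = 0.0751). Its copies MIRLET7A2 and MIRLET7A3, at 0.34 and 0.32, share the reads of the same mature miRNA and lost their calls in the same alternatives. Over the alternatives the FDR of MIRLET7A1 reached 0.129. Added up, the let-7a copies gave 0.41 with TMM (FDR = 0.00811 in edgeR's test) and 0.80 with total counts. With DESeq2's size factors their sum was at 0.25 and missed the threshold (FDR = 0.15).

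Other let-7 members were lower. MIRLET7D stood at 4146, 5417 and 4386 CPM in A375 and at 2513, 2000 and 1699 CPM in A375-BIR, a log2 fold change of -1.17 with TMM and -0.69 with total counts (FDR = 2.16e-04 and 0.0108 in edgeR's test). MIR98, which shares the seed and lies in an intron of HUWE1 on chromosome X, stood at 1721, 1580 and 1761 CPM and at 246, 737 and 748 CPM, a log2 fold change of -1.50 and -1.02. Neither overlapped between the lines. MIRLET7I stood at 141822, 129106 and 120593 CPM in A375 and at 62817, 63625 and 105886 CPM in A375-BIR, and its log2 fold change of -0.75 with TMM (FDR = 0.0114) was -0.29 with total counts (FDR = 0.248).

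In all, 12 let-7 and miR-98 precursors were tested, 4 called higher with both scalings and 3 lower with both, beside 22.3% and 13.7% of all tested precursors, while TMM by itself called 6 lower. Of the 4 higher calls, 3 are the let-7a copies, which are 1 measurement. The family's median log2 fold change was -0.50 with TMM and -0.02 with total counts, beside 0.03 and 0.50 over all tested precursors. The family's sum had a log2 ratio of -0.59 with TMM and -0.11 with total counts, closer to 0 than that of MIRLET7B under either scaling. RSEM has to assign reads of members that are 1 or 2 bases apart, so the split of reads between let-7a, let-7b and let-7c is less certain than their sum.

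Members of let-7 that lie side by side had unlike calls, but part of this cannot be placed on the genome. On chromosome 9 (94175957 to 94178920), within MIRLET7A1HG, MIRLET7D was lower with both scalings, and MIRLET7F1 was lower with TMM (-0.82) and not called with total counts (-0.34, FDR = 0.0847 by edgeR). Their neighbour MIRLET7A1 was called higher. On chromosome 22 (46112749 to 46113768), within MIRLET7BHG, MIRLET7B was lower and MIRLET7A3 was called higher. MIRLET7A1 and MIRLET7A3 share the reads of let-7a with MIRLET7A2, so their values do not show how either locus was read, and these calls were lost in 5 alternatives each. Of the 23 loci with 2 or more tested precursors (same strand, starts within 10 kb of the next), which hold 55 precursors, these were the only 2 with calls in both directions.

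The miRNAs with the largest gains in the resistant line included several that have been studied in melanoma before. MIR31, within an intron of MIR31HG on chromosome 9 (21512115 to 21512185) near the tumour suppressor CDKN2A, stood at 261, 197 and 166 CPM in A375 and at 3605, 4768 and 3722 CPM in A375-BIR. Every A375-BIR sample was thus more than 10-fold above every A375 sample. The log2 fold change was 4.25 with TMM (SE 0.23, FDR = 5.12e-09 in edgeR's test) and 4.73 with total counts. It rests on only 10, 7 and 5 counts in A375.

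MIR182, which represses FOXO3 and MITF in melanoma cells, lies on chromosome 7 (129770383 to 129770492) and stood at 1226, 1354 and 1329 CPM in A375 and at 8603, 8589 and 6230 CPM in A375-BIR. The groups were well apart, with its log2 fold change being 2.58 (SE 0.18, FDR = 6.52e-08 in edgeR's test) and 3.06 with total counts. Its neighbour MIR183 had 0, 1 and 3 counts in A375 and 14, 3 and 12 in A375-BIR, and passed with total counts (2.80, FDR = 0.0314) but not with TMM (2.34, FDR = 0.0711). At these counts MIR183 ranged from 1.75 without A375-BIR replicate 1 to 3.77 without A375 replicate 3, and it was called in 8 of 21 alternatives.

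MIR221 and MIR222 lie together on chromosome X (45746157 to 45747124) in MIR222HG, and both were higher. MIR222 stood at 2816, 2793 and 2957 CPM in A375 and at 13219, 12484 and 9587 CPM in A375-BIR, its log2 fold change being 2.04 with TMM (SE 0.15, FDR = 1.12e-07 in edgeR's test) and 2.52 with total counts. MIR221, the more abundant of them, stood at 16688, 14079 and 11298 CPM and at 21030, 27089 and 31250 CPM, its log2 fold change being 0.92 (SE 0.19, FDR = 1.40e-03) and 1.39 with total counts. Neither overlapped between the lines, and MIR222 moved more than the neighbour it shares a seed with. Together they made up 1.30% ± 0.239 of the counts in A375 and 4.07% ± 0.434 in A375-BIR (SD, n = 3 each).

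A transcript on chromosome 11 carries miR-125b, let-7a and miR-100. From its host, MIR100HG, MIR100 stood at 2008, 2652 and 1861 CPM in A375 and at 7702, 6347 and 4389 CPM in A375-BIR, a log2 fold change of 1.49 with TMM and 1.98 with total counts (FDR = 1.02e-03 and 1.97e-04 in edgeR's test). MIR125B1, about 50 kb away in the same host, stood at 521, 621 and 498 CPM and at 2130, 1760 and 1416 CPM, a log2 fold change of 1.68 and 2.16. Both were higher in every A375-BIR sample. MIR125B1 shares the reads of miR-125b with MIR125B2 on chromosome 21 (1.44 and 1.93), so its rise cannot be placed at this host. Added up, the copies gave 1.70 and 2.10. The related trio on chromosome 19 (51692612 to 51693339) in SPACA6 carries the same families, and none of its members was called with either scaling: MIR99B had a log2 fold change of -0.25 with TMM and 0.26 with total counts, MIRLET7E 0.03 and 0.50, and MIR125A 0.09 and 0.58.

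The miR-196 family, encoded within the HOX gene clusters and known to target HOX messages, was higher for 3 of 3 members with both scalings, beside 22.3% of all tested precursors. MIR196A2, in the HOXC region of chromosome 12 (53991738 to 53991847), stood at 52.1, 169 and 199 CPM in A375 and at 601, 632 and 485 CPM in A375-BIR, its log2 fold change being 2.07 (SE 0.34, FDR = 2.16e-04 in edgeR's test) and 2.55 with total counts. MIR196A1, at HOXB7, and MIR196B, at HOXA9, had log2 fold changes of 1.58 and 1.25. MIR196A1 and MIR196A2 give the same mature miRNA, so the 3 calls are 2 measurements. The call of MIR196B was lost without A375 replicate 2 (1.03, FDR = 0.0654 by edgeR, the highest over its alternatives) and with DESeq2's Wald test (FDR = 0.0557). The other HOX-linked family, miR-10, did not follow: MIR10A was called higher with total counts alone (0.74) and MIR10B lower with TMM (-0.55, FDR = 0.026 by edgeR), a call lost in 10 of its 21 alternatives and over merged mature miRNAs (FDR = 0.0527).

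In the miR-30 family 3 of 6 members were higher and 1 was lower with both scalings, beside 22.3% and 13.7% of all tested precursors, with a median log2 fold change of 0.79 with TMM and 1.28 with total counts. MIR30A, linked to autophagy and to the epithelial state, lies in LINC00472 on chromosome 6 and stood at 5502, 4119 and 4121 CPM in A375 and at 14967, 18982 and 21056 CPM in A375-BIR, its log2 fold change being 2.00 (SE 0.19, FDR = 1.24e-06 in edgeR's test) and 2.47 with total counts. MIR30C2 and MIR30C1, which give the same mature miRNA and share its reads, were higher by 1.26 and 0.99 with TMM and are 1 measurement. MIR30B was the exception, at 808, 762 and 731 CPM in A375 and 246, 165 and 405 CPM in A375-BIR, a log2 fold change of -1.52 with TMM and -1.05 with total counts. None of these groups overlapped. MIR30D, the most abundant member in A375, was not called (-0.38 with TMM and 0.09 with total counts), and in A375-BIR MIR30A stood above it in all 3 samples.

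**Figure D4:**
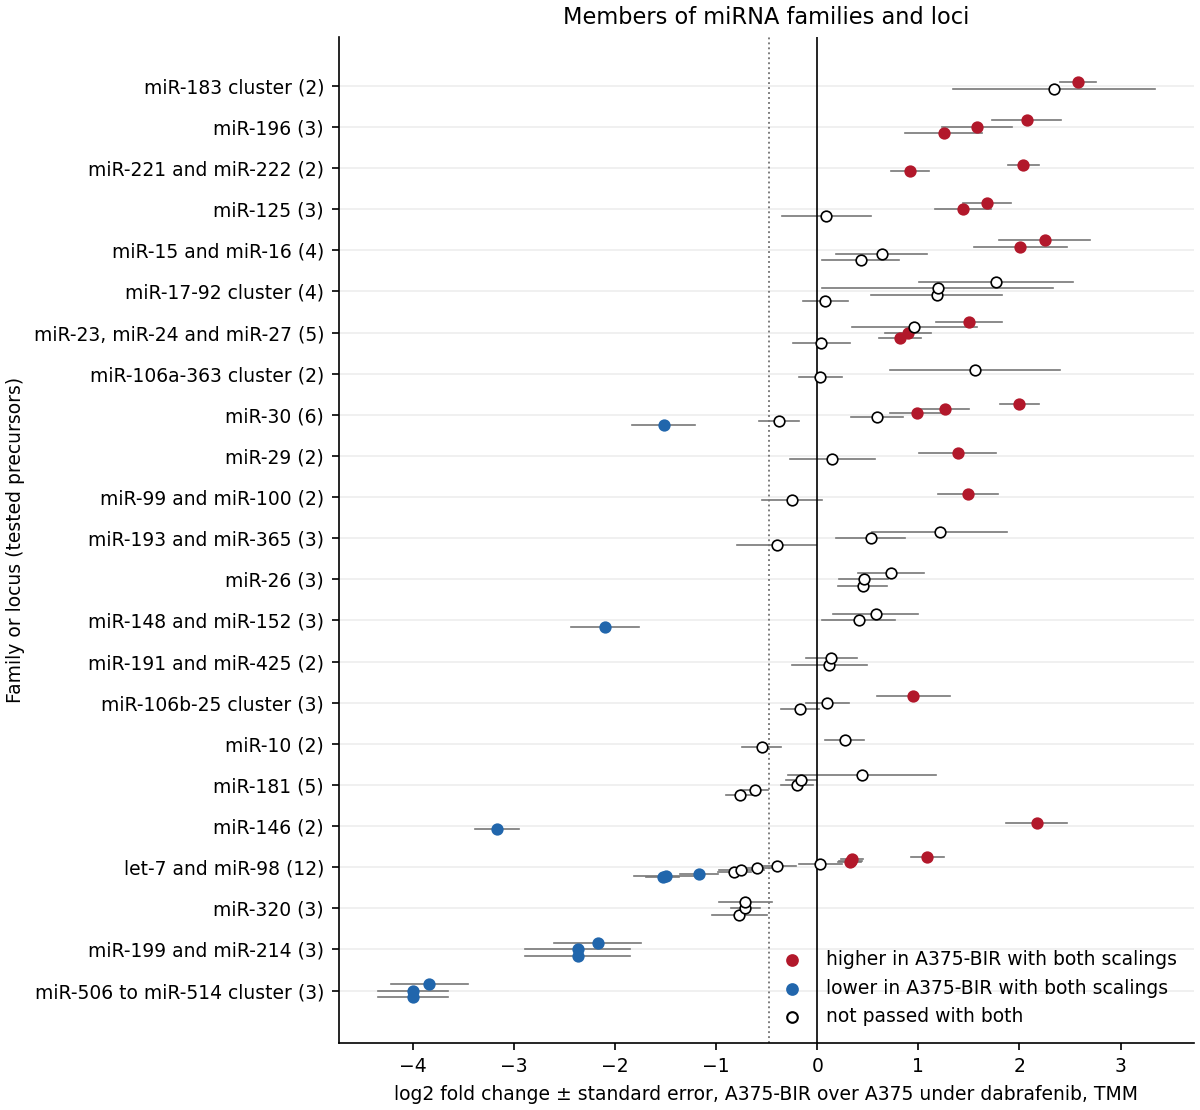
Each point is a tested precursor, placed by its log2 fold change of A375-BIR over A375 under dabrafenib with TMM (bars give the standard error) and grouped by family or locus, with the number tested in brackets; the dotted line marks where total counts give 0. Red and blue points pass with both scalings; the let-7, miR-146 and miR-30 families hold points of both colours, while the 3 miR-320 members and the miR-181b copies lie below 0 with TMM and are not called with total counts.

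Besides these, several other miRNAs were lower in the resistant line. MIR155, processed from MIR155HG on chromosome 21 and best known from activated immune cells, stood at 1643, 1975 and 1495 CPM in A375 and at 27.3, 346 and 324 CPM in A375-BIR, a log2 fold change of -2.75 with TMM and -2.26 with total counts (FDR = 9.79e-05 and 4.81e-04 in edgeR's test). All 3 A375-BIR samples were low, and replicate 1 had a single count. MIR148A, which targets MITF and DNMT1, averaged 733 ± 260 CPM (SD) across the 3 A375 samples and 178 ± 82.8 CPM across the 3 A375-BIR samples, without overlap, a log2 fold change of -2.10 and -1.63. Its family members MIR148B and MIR152 had positive values (0.58 and 0.41) that passed with total counts alone.

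The miR-199 precursors, 1 of them in the DNM3OS transcript and best known from mesenchymal cells, were 3 of 3 lower with both scalings, beside 13.7% of all tested precursors, again as copies that share reads. MIR199A1 stood at 365, 423 and 332 CPM in A375 and at 0, 75.2 and 121 CPM in A375-BIR, a log2 fold change of -2.37 with TMM and -1.89 with total counts. Added up, the copies gave -2.22 and -1.82 (FDR = 1.52e-04 and 7.92e-04 in edgeR's test). MIR1180, MIR612, MIR345 and MIR197, a list drawn up with earlier results of these data known, were 4 of 4 lower with both scalings, beside the same 13.7%, so their shared direction is not independent evidence. MIR1180 stood at 756, 1241 and 964 CPM in A375 and at 164, 286 and 202 CPM in A375-BIR, a log2 fold change of -2.12 and -1.63. The values were -1.98, -1.96 and -1.39 with TMM for MIR612, which lies within NEAT1, MIR345 and MIR197.

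Several further gains were at low counts. MIR1269A stood at 26.1, 56.4 and 0 CPM in A375 and at 492, 481 and 364 CPM in A375-BIR, a log2 fold change of 3.88 with TMM and 4.34 with total counts (FDR = 4.41e-05 and 7.59e-06 in edgeR's test), and of 4.80 without A375 replicate 2. MIR15B and MIR424, whose family restrains cyclins of the cell cycle, had log2 fold changes of 2.25 and 2.01 with TMM, and MIR424 one of 2.61 without A375 replicate 2. Their family had 4 tested members, of which 2 were higher with both scalings and none lower, beside 22.3% and 13.7% of all tested precursors. The p53 target MIR34A was higher by 1.63, the hypoxia-induced MIR210 by 1.80, and the collagen-repressing MIR29A by 1.39, and all 3 passed with both scalings. MIR29B1, at the same locus as MIR29A, was called with neither scaling (0.15 with TMM and 0.64 with total counts).

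MIR93, in MCM7, was more abundant and had overlapping groups (5476, 4542 and 2891 CPM in A375 and 4288, 7686 and 12945 CPM in A375-BIR), and its log2 fold change of 0.95 with TMM (FDR = 0.0419) was 0.48 without A375-BIR replicate 3 (FDR = 0.277, the highest over its alternatives, by edgeR). The call of MIR93 was also lost without A375-BIR replicate 2, without A375 replicate 2 or 3, and without DMSO replicate 1 or 2 of A375, as well as with DESeq2's size factors (FDR = 0.0859) and DESeq2's Wald test (FDR = 0.0513).

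Some families had no member called with both scalings. Of the 5 tested miR-181 members, 2 were lower with TMM and 0 with total counts, beside 24% of all tested precursors and 24 of 175. These 2, MIR181B1 and MIR181B2, give the same mature miRNA and are 1 measurement. MIR181B1 stood at 11786, 11793 and 10168 CPM in A375 and at 6446, 6197 and 7241 CPM in A375-BIR with TMM, without overlap. The summed miR-181 level fell with TMM (log2 ratio -0.34) and had the opposite sign with total counts (0.13), where the share of counts was 5.06% ± 0.827 in A375 and 5.53% ± 0.681 in A375-BIR (SD, n = 3 each). MIR181A1 had a log2 fold change of -0.20 with TMM and 0.27 with total counts, called with neither.

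The 3 tested miR-320 members were called lower with TMM (median -0.71), beside 24% of all tested precursors, and none with total counts (-0.24). MIR320B1 and MIR320B2 give the same mature miRNA, so the 3 calls are 2 measurements. The call of MIR320B2 was lost in 13 of 21 alternatives (FDR up to 0.577 by edgeR) and that of MIR320A in 4. The 3 miR-26 members, within the CTDSP phosphatase genes, had none called by TMM (median 0.46) and 3 higher with total counts (0.94), which called 59 of all 175 higher. Their values did not overlap between the lines, and MIR26A1 and MIR26A2 share reads. MIR21, an AP-1 responsive miRNA, stood at 16897, 12583 and 14455 CPM in A375 and at 12864, 12605 and 11691 CPM in A375-BIR, overlapped between the lines, and had a log2 fold change of -0.24 with TMM and 0.22 with total counts, called with neither. The miR-17-92 cluster had 0 of 4 tested members called with TMM and 2 higher with total counts, beside the same 59 of 175, and a median of 1.19 and 1.66. Its most abundant member MIR92A1 was at 0.08 and 0.55. MIR20A, at low counts and without overlap, was at 1.77 and 2.25, and was called in 5 of 21 alternatives, among them that without A375 DMSO replicate 1. MIR191 and MIR425 on chromosome 3 were called with neither scaling, at 0.14 and 0.12 with TMM. None of 3 tested miR-193 and miR-365 precursors was called with TMM and 1 with total counts (MIR193A, 0.99). Other lists with a single tested member were not called with both scalings: the miR-130 and miR-301 member at -0.02 with TMM, and the miR-378 member at 0.45, which passed with total counts alone. No member of the miR-103 and miR-107 or the miR-132 and miR-212 list was abundant enough for the test.

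Under dabrafenib, some precursors were counted in only 1 of the lines. MIR3929 and MIR622 had no counts in the A375 dabrafenib samples, though 5 and 6.6 in A375 in DMSO, and passed the test. Against a limit of 3 counts over the A375 dabrafenib samples, the lower bound of the fold by which A375-BIR exceeded A375 was 12.2 for MIR3929 with TMM and 17.0 with total counts. For MIR622 the bound was 8.91 with TMM and 12.5 with total counts. The bound of MIR3929 with TMM was 6.07 without A375-BIR replicate 2 and 7.67 and 8.02 without A375 replicates 1 and 2, and that of MIR622 was 5.62 and 5.87 without the same A375 replicates. Below the filter, 594 precursors had a count in the 6 dabrafenib samples, and 7 of them had 0 counts in A375 and at least 10 in A375-BIR. Because they were picked for these counts, a bound above 1 with all samples was set in advance and is no test. The bounds also leave out counting error in the line with counts. Of the 6 described here, MIR224, in GABRE, had 4, 8 and 4 counts in the A375-BIR samples, at least 3.63-fold higher with TMM and 5.09-fold with total counts.

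For the other 5, the bounds with TMM were 2.72 for MIR639, 2.50 for MIR1270, 2.50 for MIR33A, which lies in the cholesterol regulator SREBF2, 2.42 for MIR130A and 2.27 for MIR935. With total counts they were 3.82, 3.50, 3.50, 3.39 and 3.18. Without A375 replicate 1 or 2, each of these 6 bounds was lower by over 1.5 times, reaching 2.29 for MIR224 and between 1.43 and 1.72 for the others with TMM without replicate 1. Without A375-BIR replicate 2 the bound with TMM was 0.805 for MIR33A, so no difference is shown there, and 1.61 for MIR1270. Without A375-BIR replicate 1 it was 1.49 for MIR639. In the opposite direction and picked by the same rule, MIR3194 in NFATC2 had 6, 2 and 2 counts in A375 and 0 in A375-BIR under dabrafenib. It was at least 4.89-fold lower there with TMM and 3.49-fold with total counts, with a bound with TMM of 3.10 without A375 replicate 1 and 2.76 without A375-BIR replicate 2.

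Of the 10 tested rRNA-like precursors, 5 were lower in A375-BIR with TMM and 3 with both scalings, beside 24% and 13.7% of all tested precursors, with a median log2 fold change of -0.98 with TMM and -0.48 with total counts. Among the 3, ENSG00000277437 and ENSG00000264063 had near-identical counts (814, 1006 and 592 against 813, 1008 and 592 in A375), so they are not separate measurements. Nor are MIR3648-1 and MIR3648-2 among the 10. MIR663A stood at 17366, 21640 and 15585 CPM in A375 and at 4670, 4181 and 3499 CPM in A375-BIR, without overlap, a log2 fold change of -2.15 with TMM and -1.66 with total counts (FDR = 7.88e-07 and 1.52e-05 in edgeR's test). The most abundant of them, ENSG00000275110, stood at 196605, 292266 and 193832 CPM and at 128146, 95783 and 128883 CPM, a log2 fold change of -0.95 (FDR = 0.0103) with TMM and -0.47 with total counts (FDR = 0.183). Whether these reads come from miRNAs or from ribosomal RNA was not tested. Across all 175 tested precursors, the log2 fold change had a Spearman correlation of -0.21 with the GC content of the hairpin, and of -0.15 over the 165 that are not rRNA-like.

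Most line differences under the drug were also present without it. In DMSO, 81 of 175 precursors (46.3%) differed between the lines by the same test. Of the 63 called under dabrafenib with both scalings, 52 were called in DMSO in the same direction, 33 higher and 19 lower, and 0 in the opposite direction. The other 11, 6 higher and 5 lower, missed the threshold in DMSO. With TMM none of these 11 passed a test of the difference between the line differences under dabrafenib and in DMSO, and with total counts 1 did, MIR196A1 (FDR = 0.0499 by edgeR). A call in 1 treatment alone thus does not show that a difference depends on the drug. That test, in edgeR's quasi-likelihood framework, called 6 of 175 precursors (3.43%), with 34 at an unadjusted p under 0.05. MIR196A1 gives the same mature miRNA as MIR196A2, which was called in DMSO (0.74, FDR = 0.0117 by edgeR). Added up, these copies were called in DMSO too (0.63, FDR = 0.0338), so miR-196a was not called under dabrafenib alone. The difference of their sum passed with total counts (1.78, FDR = 0.0373) and missed the threshold with TMM (1.39, FDR = 0.061).

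Among the 11, the difference ranked first in edgeR's test was that of ENSG00000277437 and ENSG00000264063 (FDR = 0.19 for each), which are abundant and rRNA-like and had a log2 fold change of -0.98 against -0.36 in DMSO. The largest differences by size were at low counts. MIR4521 stood at 130, 28.2 and 33.2 CPM in A375 and at 246, 316 and 142 CPM in A375-BIR under dabrafenib, a log2 fold change of 1.81 against -0.05 in DMSO (FDR of the difference 0.19 by edgeR). It moved to 2.97 without A375 replicate 1 and missed the threshold without A375 replicate 2 or 3 or A375-BIR replicate 2 (1.44, 1.54 and 1.47, FDR = 0.096, 0.0804 and 0.112 by edgeR, the last the highest over its alternatives). MIR532, in CLCN5, stood at 417, 226 and 199 CPM and at 27.3, 15.0 and 101 CPM, a log2 fold change of -2.58 against -0.63 in DMSO (FDR of the difference 0.19). It moved to -3.77 without A375-BIR replicate 3, and without A375 replicate 1 it was -2.09 (FDR = 0.0504). MIR3654, at 1.80, missed the threshold without A375-BIR replicate 1 or A375 replicate 2 (FDR = 0.0577 and 0.0854). MIR767, in GABRA3, was at 0.94 against 0.21, MIR27B at 0.90 against 0.42, and MIR671 at -1.21 against -0.39.

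For the 6 that passed, the lines differed under dabrafenib by another amount than in DMSO. MIRLET7C stood at 2718, 2855 and 2607 CPM in A375 in DMSO and at 15165, 14987 and 11210 CPM in A375-BIR in DMSO, so that its line difference was 2.34 there against 1.09 under the drug. MIR146A stood at 24735, 22209 and 25938 CPM and at 906, 1020 and 1425 CPM in DMSO, a line difference of -4.44 against -3.17 under the drug. For both, the lines remained apart under dabrafenib but by less. MIRLET7B went the other way, with a line difference of -0.63 in DMSO and -1.53 under the drug, and MIR663A likewise, with -0.90 and -2.15. The remaining calls, MIR3648-1 and MIR3648-2 on chromosome 21, are themselves rRNA-like and had near-identical values. They had a line difference of 1.14 in DMSO and of -0.51 and -0.49 under the drug, where neither was called. With total counts 8 passed the test of the difference, and 4 passed with both scalings: MIRLET7C, MIR146A, MIR3648-1 and MIR3648-2. With total counts all of these but MIR146A had an FDR of 0.0499 (edgeR), and over merged mature miRNAs one of 0.0601, so MIR146A alone kept both calls there. MIRLET7B missed the threshold over merged mature miRNAs with TMM as well (FDR = 0.061). The rest of the 8, namely MIR196A1, MIR196A2, MIR30D and MIRLET7F2, passed with total counts alone (FDR = 0.0499 for each by edgeR). With TMM the number that passed this test changed with the alternative. It was 2 once the rRNA-like precursors, 3 of the 6 among them, were left out. It was 3 without A375 dabrafenib replicate 1 or 2 or without A375 DMSO replicate 1.

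**Figure D5:**
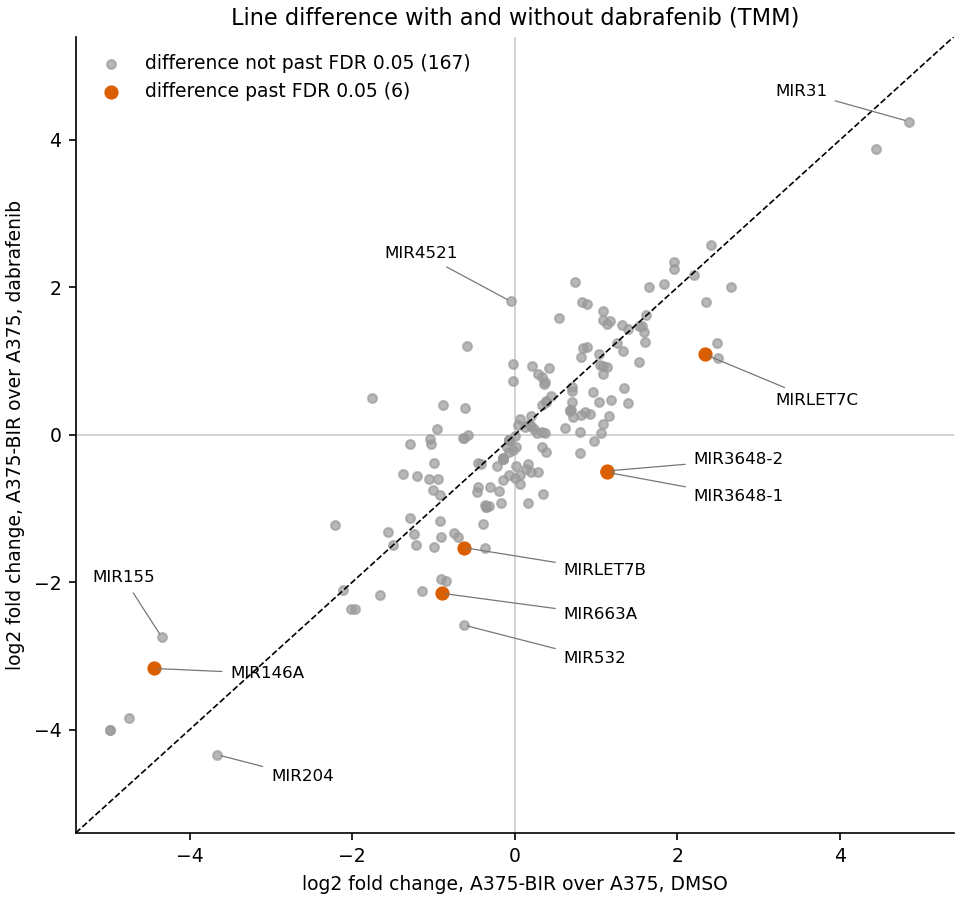
Each point is a tested precursor, with the log2 fold change of A375-BIR over A375 in DMSO on the horizontal axis and under dabrafenib on the vertical axis (TMM); the dashed line marks equal values. Most points lie near the line, and the 6 orange points pass the test of the difference between the treatments; with total counts MIRLET7B and MIR663A no longer do, and MIR3929 and MIR622 are not drawn.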

How the data were processed

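Small RNA libraries of A375 and A375-BIR were all used as labelled. Adapters, low-quality ends and reads of rRNA and phiX had been removed by the authors, who deposited RSEM expected counts (RSEM 1.2.25, hg38; R 4.0.2 and edgeR in the submitters' processing notes), without normalization, for 1881 precursors under Ensembl identifiers. Of these, 1852 were given a GENCODE v44 name and 29 have none. The 17 rRNA-like precursors were found by shared stretches of at least 18 bases with the 45S pre-rRNA.

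Rounded counts went into edgeR 4.0.16 (R 4.3.3). Its filterByExpr, given the 4 groups, kept 175. With TMM factors and 1 mean per line and treatment over all 12 samples, the quasi-likelihood F test was run, and p-values were adjusted after Benjamini-Hochberg, with a threshold of 0.05. The coefficient of variation was 21.6%. The design was tested on simulated data. Replicate samples under dabrafenib differed more than Poisson counting allows (chi-square over degrees of freedom 2.88 to 11.0). In DMSO, deviations of same-numbered samples of the 2 lines correlated at 0.11, 0.22 and 0.30, against -0.32 to 0.10 for the other pairs. The labels do not speak of pairing, and whether the numbers mark pairs was not tested. Tables used Python 3.11.15 with pandas 2.3.3, and figures matplotlib 3.10.9.

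Members and lists were chosen with earlier results of these data known. In the ranking by log2 fold change given next, copies with the same mature miRNA were counted once. Named precursors are, among those called with both scalings whose groups do not overlap, the 12 highest and 12 lowest by log2 fold change; the 5 most abundant; 5 abundant ones whose call or sign differs between scalings; those past the test of the difference between treatments; up to 5 in each direction called under dabrafenib and not in DMSO; the miR-181 family; the 2 most abundant members of each list and any called against the others; and those with 0 counts in 1 line and at least 10 in the other. Others, namely MIR34A, MIR210, MIR21, MIR125B2, MIR152, MIR30C1, MIR30C2, MIRLET7A3, MIRLET7E, MIRLET7F1 and the marker miRNAs with few counts, were named after their values were seen, as members of the lists. Alternatives were total counts, DESeq2 1.42.0 size factors and Wald test, a filter of 1 CPM in 3 samples or no filter, a fit of the 6 dabrafenib samples alone, a 1.5-fold minimum, the replicate number as a block, the rRNA-like precursors left out, and each sample left out. One precursor with 0 counts in A375 is not reported here.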

Additional observations from a re-analysis of the deposited data

Results flagged for a closer look

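For 6 precursors, the difference between A375-BIR and A375 under dabrafenib was not the same as in DMSO, by a direct test of that difference (edgeR, adjusted after Benjamini-Hochberg over 175 precursors). The difference of the log2 fold changes, dabrafenib minus DMSO, was -1.25 for MIRLET7C (standard error 0.22, FDR = 0.0103). It was -1.64 for MIR3648-2 and -1.65 for MIR3648-1, which share reads (FDR = 0.011 for each). MIR663A had -1.24 (standard error 0.28, FDR = 0.0226) and MIR146A 1.27 (standard error 0.29, FDR = 0.0226). MIRLET7B had -0.89 (standard error 0.21, FDR = 0.0281), and over merged mature miRNAs -0.80 (FDR = 0.061). With total counts, the FDR was 0.188 for MIRLET7B, 0.162 for MIR663A and 0.0499 for MIRLET7C, MIR3648-1 and MIR3648-2, and for the last 3 it was 0.0601 over merged mature miRNAs. What lies behind these differences was not tested.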

How the results depend on the processing

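Of the 63 precursors called with both scalings, 47 were called in each of 21 alternatives, including each sample left out in turn, 3 rRNA-like ones in the 19 that kept them, and 13 were lost in some, most often MIR93, the let-7a copies and MIR769; none changed sign. The 1.5-fold minimum, not among the 21, left 76 calls with TMM. With total counts in place of TMM, 59 precursors were higher and 24 lower in A375-BIR under dabrafenib, against 39 and 42. With the rRNA-like precursors left out as well, an alternative chosen after seeing the data, 25 were lower. The test of the difference between dabrafenib and DMSO called 8 precursors with total counts, against 6 with TMM. Without the rRNA-like ones it called 2 with TMM, and 2 with total counts (also chosen after seeing the data). With each sample left out in turn it called between 3 and 6, with 3 without A375 DMSO replicate 1 and without A375 dabrafenib replicate 1 or 2. By direction, 1 of the 6 had a higher and 5 a lower line difference under dabrafenib than in DMSO. The higher ones were 5 with total counts and 2 each with no filter, with the filter of 1 CPM and with DESeq2's Wald test, and 0 to 2 with a sample left out. The lower ones were 3 with total counts and with the filter of 1 CPM, 1 without the rRNA-like precursors with either scaling, and 3 to 5 with a sample left out. The cause was not tested.

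Leaving out each sample in turn, the line difference under dabrafenib had 67 to 84 calls (32 to 41 higher and 35 to 44 lower), with both scalings 53 to 66, and over merged mature miRNAs 55 to 73. With DESeq2's Wald test it had 69. Under dabrafenib, deviations of same-numbered samples of the 2 lines correlated at 0.15, 0.05 and -0.04, so pairing by replicate number was not seen there. With the replicate number as a replicate block, the line difference under dabrafenib had 78 calls (41 higher, 37 lower), 65 over merged mature miRNAs and 65 with both scalings; in DMSO it had 78, and the test of the difference between treatments 6.

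Some precursors near 0, none called with TMM, changed sign, and the cause was not tested. With total counts the log2 fold change was 0.27 for MIR181A1, 0.30 for MIR181A2, 0.26 for MIR99B, 0.09 for MIR30D and MIR193B and 0.29 for MIR25. Without rRNA-like precursors and with total counts it was 0.15, 0.18, 0.12 and 0.17 for MIR181A1, MIR181A2, MIR99B and MIR25. With no filter it was 0.02, 0.06 and 0.07 for MIR181A1, MIR181A2 and MIR25. With the filter of 1 CPM it was 0.02, 0.05, 0.01 and 0.07 for MIR181A1, MIR181A2, MIR99B and MIR25. Fitting only the dabrafenib samples gave 0.02 for MIR181A2 and 0.03 for MIR25. MIR92A2 was at -0.02 with DESeq2's size factors and with its Wald test. With each sample left out, the ranges were -0.29 to 0.00 for MIR181A1, -0.25 to 0.03 for MIR181A2, -0.43 to 0.23 for MIR99B, -0.11 to 0.33 for MIR125A, -0.35 to 0.00 for MIR25, -0.20 to 0.39 for MIR29B1, -0.10 to 0.34 for MIR191 and -0.25 to 0.57 for MIR425. Depth limits the precursors with few counts: in a group of 3 samples, a change from 0 counts cannot be sized beyond its lower bound.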
